A study of Mus musculus with 12 samples.

Results

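The 38 genes described here make, recycle, interconvert and break down purine nucleotides, supply the one-carbon units that purine synthesis uses, or handle thiopurine drugs. They were chosen by name, out of 19513 protein-coding genes with an annotated start. Their regions of open chromatin were the peaks called within 2 kb of a start of the gene, together with any region that the authors' deposited tables assign to it. That gave 78 of the 73156 regions in the union of all peak lists, and 51 of the 78 lay within 2 kb of a start. The other 27 entered because a deposited table lists them as changed between the same libraries, so a change there is no independent finding. The assay was ATAC-seq, in which a transposase inserts adapters into accessible DNA. The cells were granulocyte-monocyte progenitors from the bone marrow of C57BL6 mice, carrying ER-HOXA9, in which the leukaemia protein HOXA9 is fused to the estrogen receptor. All groups were grown with stem cell factor and beta-estradiol, so the fusion and its ligand are shared by the controls.

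There were 6 groups of 2 biological replicates. On day 2 cells had been given GSK-LSD1 at 200 nM (LSD1i), which blocks the histone demethylase LSD1, 5 uM cerulenin, a fatty acid synthase inhibitor (CER), all 3 drugs at these doses (Combo), 5 uM mercaptopurine, a purine analogue (6MP), or DMSO (Vehicle). Day0 cells were sampled untreated on day 0. Vehicle is the control of all 4 drug comparisons, so these share its 2 libraries.

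Cells obtain purine nucleotides by building inosine monophosphate (IMP) stepwise on phosphoribosyl pyrophosphate, or by salvage of free bases and nucleosides. One-carbon units carried by folate, made by the serine hydroxymethyltransferases and the MTHFD enzymes, are built into the purine ring. Mercaptopurine is itself a substrate of salvage: HPRT converts it to a nucleotide, IMPDH and GMPS carry it on to thioguanine nucleotides, and TPMT and xanthine dehydrogenase divert or clear it.

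Peak lists held 42651 to 56398 peaks per library. Over regions found in every library, summits stood at a median of 16.9 times background in 6MP replicate 1, 23.0 times in CER replicate 2 and between 28.3 and 42.7 times in the other 10. Of 12 markers of granulocyte-monocyte progenitors, 12 had a called peak at the start in every library. None of 5 T and NK cell markers had one in any library. Starts of other lineages were not all closed, since among the lists given here 3 of 5 erythroid, 2 of 4 megakaryocyte and 2 of 5 stromal and endothelial markers were called in all 12.

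The upstream sequences of 5 members are given here because the values described further on concern their starts or, for Nt5e, a start at which no peak was called. Hprt and Impdh2 stand for activation of mercaptopurine, Atic for the last steps to IMP, and Ak1 for a start with a change. Each runs over the 250 bases before the RefSeq start (GRCm38.p6, the assembly of mm10), 5′ to 3′ on the gene's strand, with capitals marking matches to the searched motifs on either strand.
Hprt, chrX:52987828-52988077, plus strand: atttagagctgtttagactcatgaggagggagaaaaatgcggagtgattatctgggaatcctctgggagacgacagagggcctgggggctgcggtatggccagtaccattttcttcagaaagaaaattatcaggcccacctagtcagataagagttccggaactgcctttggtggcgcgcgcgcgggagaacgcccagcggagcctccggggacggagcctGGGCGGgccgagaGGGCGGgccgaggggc
Impdh2, chr9:108560186-108560435, plus strand: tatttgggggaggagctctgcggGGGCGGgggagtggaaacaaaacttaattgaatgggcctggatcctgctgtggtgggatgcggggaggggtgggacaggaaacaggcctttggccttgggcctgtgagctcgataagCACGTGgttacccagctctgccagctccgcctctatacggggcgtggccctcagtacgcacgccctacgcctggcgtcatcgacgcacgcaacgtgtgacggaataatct
Atic, chr1:71556906-71557155, plus strand: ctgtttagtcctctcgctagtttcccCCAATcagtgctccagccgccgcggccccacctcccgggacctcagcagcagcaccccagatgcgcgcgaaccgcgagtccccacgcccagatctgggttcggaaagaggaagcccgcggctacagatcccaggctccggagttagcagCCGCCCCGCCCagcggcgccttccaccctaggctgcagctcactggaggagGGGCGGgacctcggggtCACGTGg
Ak1, chr2:32621508-32621757, plus strand: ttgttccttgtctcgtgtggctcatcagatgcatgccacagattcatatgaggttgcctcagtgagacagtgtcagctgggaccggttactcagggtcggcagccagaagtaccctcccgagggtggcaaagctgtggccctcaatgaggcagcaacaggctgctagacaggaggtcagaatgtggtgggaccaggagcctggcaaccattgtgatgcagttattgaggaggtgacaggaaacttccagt
Nt5e, chr9:88327359-88327608, plus strand: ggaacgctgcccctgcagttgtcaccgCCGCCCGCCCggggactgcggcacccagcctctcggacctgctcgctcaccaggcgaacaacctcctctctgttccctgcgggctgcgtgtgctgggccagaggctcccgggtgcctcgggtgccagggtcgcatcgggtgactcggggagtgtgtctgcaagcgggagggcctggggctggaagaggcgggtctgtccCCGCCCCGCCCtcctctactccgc

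Hprt has 2 GC boxes (GGGCGG), at positions -29 and -16 from the start. Atic has an E-box (CACGTG) at -7, and Impdh2 has one at -110. The Ak1 sequence holds none of the searched motifs, and only 4 CpG dinucleotides against 17 to 22 in the other 4. It does not reach the highest Ak1 summit, which lay at -418 to -366 bp from the start across the 12 libraries. A window of 300 bases, 250 before the start and 50 after, was available for 36 members, Pfas and Xdh being the ones without. Of these 36, 28 held a GC box (77.8%), compared with 64.1% of genes whose start was called in all 12 libraries and 46.3% of all genes. CCAAT occurred in 41.7% of member windows and in 39.4% of those of genes with a called start, and the E-box in 11.1% and 10.2%. Among the other motifs searched, the E2F forms TTTGGCGC, TTTCGCGC and TTTCCCGC occurred in 2 of 36 windows, CCGGAAGT (ETS) in 2, CGCATGCG (NRF1 core) in 1 and AAGATGGCG (YY1) in 1. TGATGCAA (ATF4 composite) and TGACGTCA (CRE) occurred in 0. Median GC content was 61.2% in the members and 60.7% in genes with a called start. These are matches of letters and do not show binding.

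Nearly all of these genes had open starts in every condition. A peak within 2 kb of the start was called in all 12 libraries for 36 of 38 members, while 58.7% to 61.1% of all genes had one in a given library. Nt5e, which encodes the cell-surface nucleotidase CD73, had none in any library although its upstream sequence holds 4 GC box matches. Ampd3, an AMP deaminase, had one in 10 libraries and lacked it in 6MP replicate 1 and Day0 replicate 2. Signal is given as log2 of the summit's fragment pileup over the library's background depth, centred so that the median of regions shared by all libraries is 0.

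**Figure D1:**
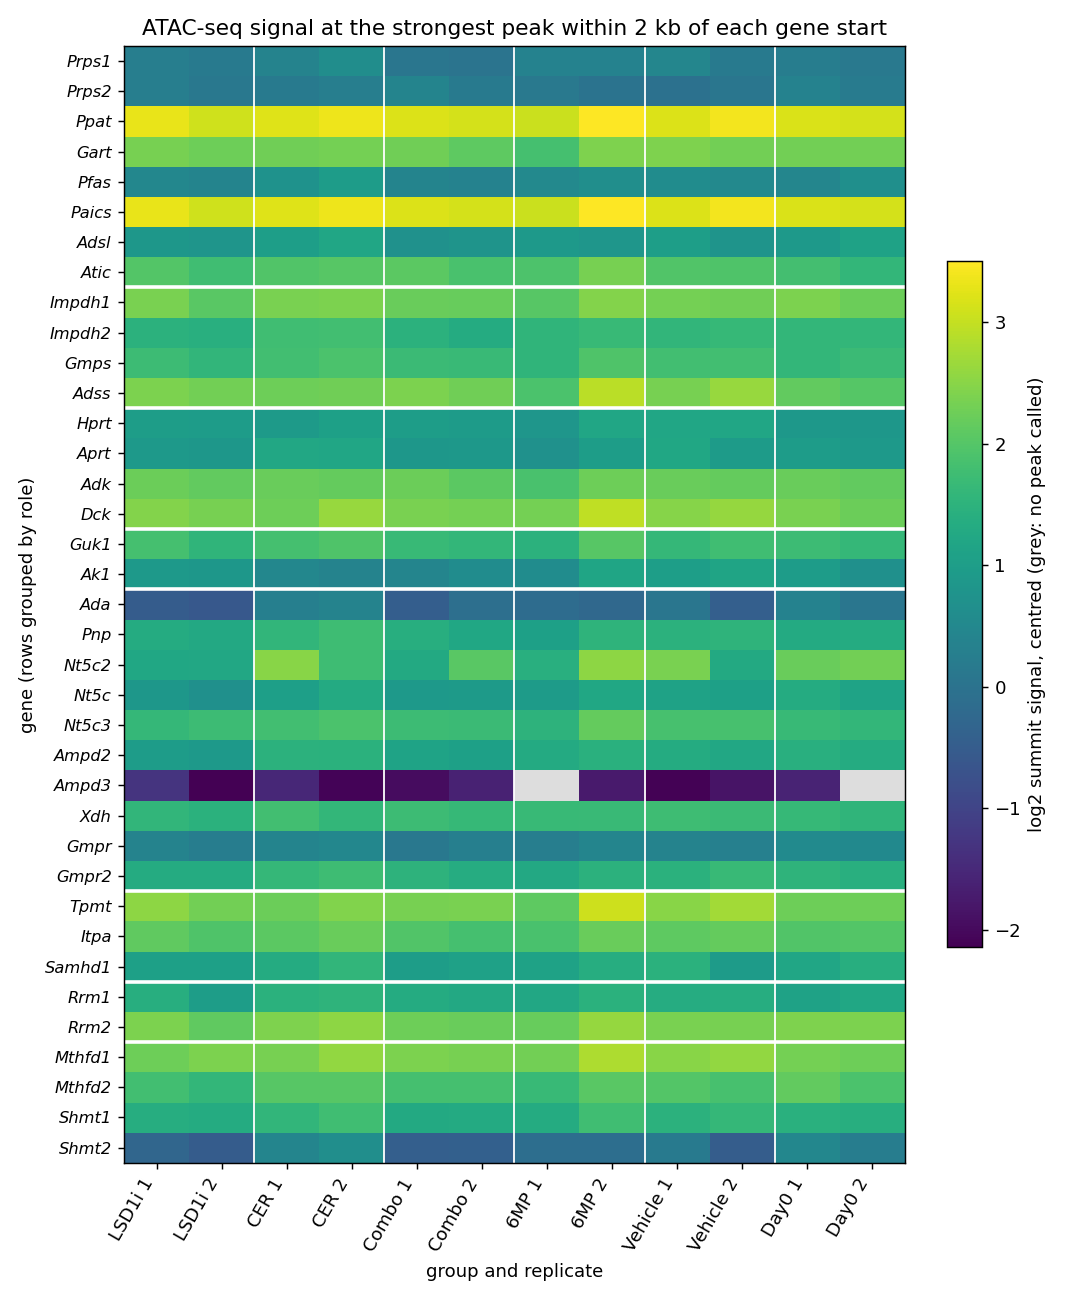
Log2 summit signal, centred, at the strongest peak within 2 kb of the start of 37 genes (rows, grouped by role) in 12 libraries (columns, 2 per group); grey marks no called peak. Rows differ far more than columns: the region shared by Ppat and Paics is brightest and Ampd3 darkest in every group.

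The genes of de novo IMP synthesis include the strongest start of all members and several weak ones. Ppat, which commits phosphoribosyl pyrophosphate to the pathway, and Paics, which acts midway, lie on opposite strands and start within 1 shared region, chr5:76950740-76952087. It was the strongest member region, with a mean over libraries of 3.23 and a rank at the 99.9th percentile of all called starts. Its signal was 3.30 and 3.09 in LSD1i, 3.22 and 3.36 in CER, 3.21 and 3.13 in Combo, 3.06 and 3.50 in 6MP, 3.21 and 3.41 in Vehicle and 3.18 and 3.13 in Day0. The groups overlapped there, and the signal of the 2 starts cannot be told apart. Gart, a trifunctional enzyme of the pathway, averaged 2.26 in a region that also holds the start of Son. Atic averaged 1.94, Adsl (adenylosuccinate lyase) 0.90 and Pfas (the glutamine-using amidotransferase) 0.56. Prps1 and Prps2, which make phosphoribosyl pyrophosphate, were low at 0.27 and 0.18.

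At the branch from IMP, Impdh1 averaged 2.27, Adss (adenylosuccinate synthetase) 2.32, Gmps (GMP synthetase) 1.73 and Impdh2 1.57. The strongest Gmps region also holds the start of Slc33a1. A second region at a Gmps start, shared with no other start, averaged 1.38. The strongest Gmps region had 1.72 and 1.57 in LSD1i, 1.78 and 1.895 in CER, 1.70 and 1.69 in Combo, 1.55 and 1.95 in 6MP, 1.80 and 1.78 in Vehicle and 1.59 and 1.71 in Day0. Both LSD1i and both Combo libraries lay below both Vehicle libraries there. The strongest Impdh1 start region had 2.37 and 2.06 in LSD1i, 2.36 and 2.38 in CER, 2.21 and 2.182 in Combo, 2.04 and 2.45 in 6MP, 2.31 and 2.29 in Vehicle and 2.38 and 2.23 in Day0. LSD1i overlapped Vehicle at this one, and Combo lay below it. At a second region at an Impdh1 start, chr6:29211593-29212528, both LSD1i and both Combo libraries lay below both Vehicle libraries. There LSD1i minus Vehicle was -0.38 ± 0.17 (limma adjusted p = 0.193) and Combo minus Vehicle -0.22 ± 0.17 (adjusted p = 0.491). Signal at the Impdh2 start was 1.48 and 1.42 in LSD1i, 1.76 and 1.80 in CER, 1.48 and 1.32 in Combo, 1.55 and 1.66 in 6MP, 1.58 and 1.64 in Vehicle and 1.59 and 1.59 in Day0. Both CER libraries lay above both Vehicle libraries, and both LSD1i and both Combo libraries below them, but none of these differences passed the test across regions described below.

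Among salvage and kinase genes, Dck (deoxycytidine kinase) averaged 2.45, Adk (adenosine kinase) 2.16, Guk1 (guanylate kinase) 1.72, Hprt 1.0, Aprt (adenine phosphoribosyltransferase) 0.97 and Ak1 (adenylate kinase) 0.77. The Adk region also holds the start of Ap3m1. At Hprt, chrX:52987737-52988844, signal was 0.99 and 0.98 in LSD1i, 0.93 and 1.06 in CER, 1.0 and 0.95 in Combo, 0.82 and 1.19 in 6MP, 1.19 and 1.21 in Vehicle and 0.86 and 0.83 in Day0. The 2 Vehicle libraries were the highest of the 12. Hprt differed from Vehicle by -0.22 ± 0.14 (SE) in LSD1i, by -0.20 ± 0.14 in CER, by -0.22 ± 0.14 in Combo and by -0.19 ± 0.14 in 6MP, with limma adjusted p of 0.402, 0.615, 0.389 and 0.9998. These 4 values share the same control libraries.

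Genes of breakdown and drug handling varied as widely. Tpmt, the thiopurine methyltransferase, averaged 2.42, at the 93.9th percentile, in a region that also holds the start of Kdm1b, which encodes the LSD1 paralogue LSD2. Signal there was 2.53 and 2.30 in LSD1i, 2.24 and 2.43 in CER, 2.33 and 2.37 in Combo, 2.09 and 3.08 in 6MP, 2.50 and 2.73 in Vehicle and 2.24 and 2.25 in Day0. The 6MP pair held the highest and the lowest library, and no comparison passed the test. Itpa, which clears non-canonical purine triphosphates, averaged 2.04 in a region shared with Ddrgk1, and 0.43 in a second region at another Itpa start. Signal at the first was 2.13 and 1.94 in LSD1i, 2.09 and 2.22 in CER, 1.96 and 1.84 in Combo, 1.87 and 2.20 in 6MP, 2.11 and 2.16 in Vehicle and 1.96 and 1.99 in Day0. Combo was below Vehicle without overlap, and LSD1i overlapped it. At the second Itpa region both groups lay below Vehicle without overlap. There LSD1i minus Vehicle was -0.38 ± 0.15 (limma adjusted p = 0.133) and Combo minus Vehicle -0.42 ± 0.15 (adjusted p = 0.0752), and neither passed. Xdh averaged 1.65, Pnp (purine nucleoside phosphorylase) 1.40 and Ada (adenosine deaminase) -0.11, which is at the 19.3rd percentile. Samhd1, a deoxynucleotide triphosphohydrolase, averaged 1.22. Nt5c3 and Nt5c, nucleotidases, averaged 1.76 and 1.04, Gmpr2 and Gmpr, GMP reductases, 1.47 and 0.37, Ampd2 1.26 and Ampd3 -1.79. Regions of Nt5c3, Gmpr2 and Ampd2 also hold starts of other genes.

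Of the remaining genes, Rrm2 and Rrm1, subunits of ribonucleotide reductase, averaged 2.36 and 1.31. Mthfd1, the cytosolic folate enzyme, averaged 2.42, Mthfd2, its mitochondrial relative, 1.9 in a region that also holds the start of Mob1a and 1.70 in one at another of its starts, and Shmt1 1.47. Shmt2, the mitochondrial serine hydroxymethyltransferase, averaged -0.03.

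The highest summit lay close to the annotated start. Over the 37 genes with a start region its median position was 35 bp downstream, it was within 200 bp in 29, and in 26 it moved by at most 100 bp across libraries. Gmps was the farthest, with its summit 1038 bp (median) downstream of the outer start, in the region it shares with Slc33a1.

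**Figure D2:**
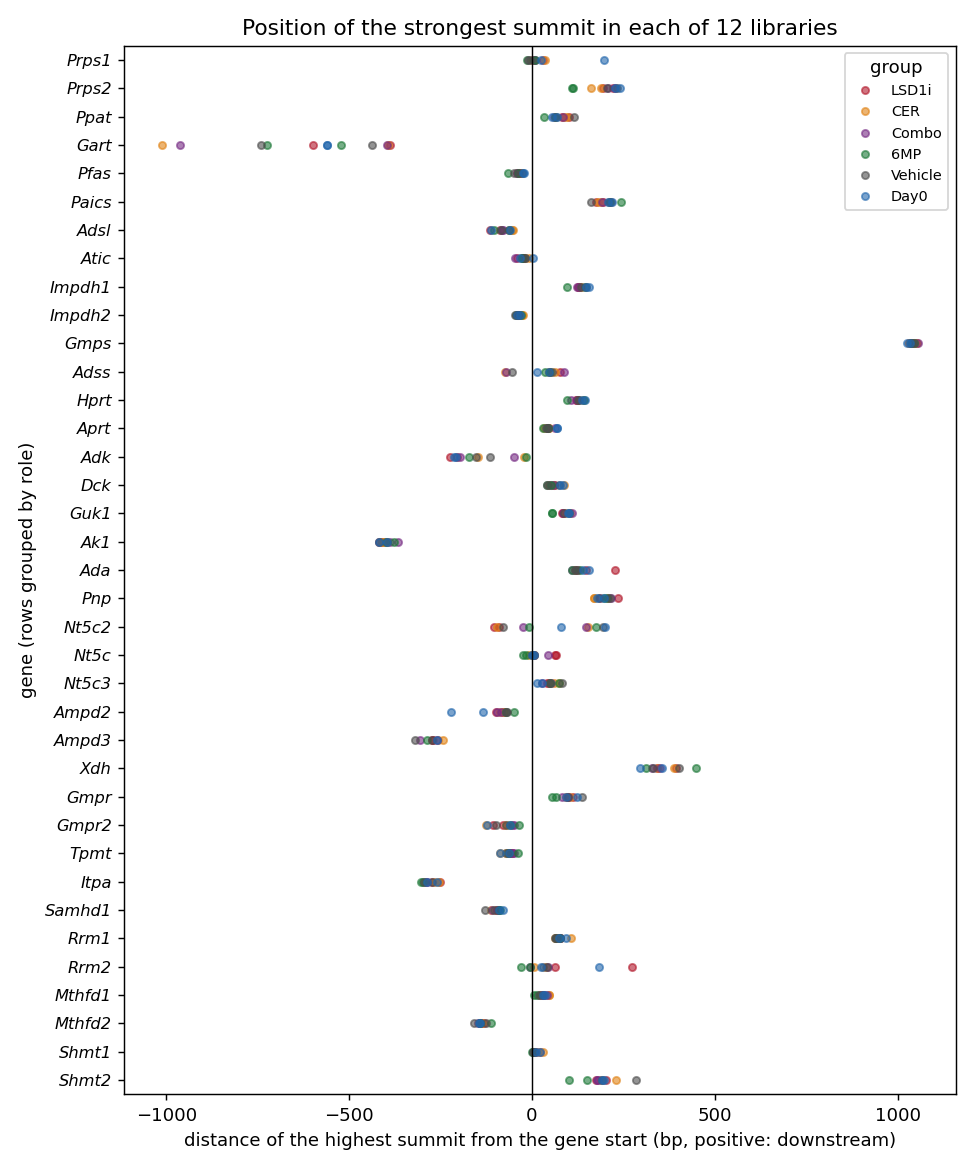
Distance in bp of the highest summit from the gene start (x axis, positive downstream) for 37 genes (rows), 1 point per library, coloured by group. Points of most genes lie within 200 bp of 0, while Gmps sits near 1038 bp, Gart scatters over 624 bp and Nt5c2 falls on both sides of its start.

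Nt5c2, a cytosolic purine nucleotidase that also acts on thiopurine nucleotides, had a start region (chr19:46961478-46963133) that split the libraries in a way the treatments do not. Signal was 1.21 and 1.23 in LSD1i, 2.49 and 1.76 in CER, 1.28 and 2.06 in Combo, 1.41 and 2.53 in 6MP, 2.37 and 1.29 in Vehicle and 2.20 and 2.29 in Day0. The 6 libraries with the higher signal are the 6 whose deposited file names carry a letter after the library number. It is P for both Day0 libraries and R for Vehicle replicate 1, 6MP replicate 2, CER replicate 1 and Combo replicate 2. P and Day0 thus cannot be told apart. The mean was 2.32 in these 6 libraries against 1.36 in the 6 without a letter. The summit also lay 79 to 199 bp downstream of the start in the 6 with a letter, and at -104 to -8 bp from it in the 6 without. What the letter stands for is not given in the sources used here. Both LSD1i libraries are without it, and the Vehicle library without it, replicate 2, had 1.29. The difference of LSD1i from Vehicle was -0.61 ± 0.28 (limma adjusted p = 0.220). Without Vehicle replicate 2 it was -1.15, in a fit that leaves 1 library of Vehicle, so no p-value is given. Within this comparison, LSD1i and the absence of the letter cannot be told apart at this region except through Vehicle replicate 2. Of 62 member regions called in all 12 libraries this was the one that separated fully by the letter (1.61%), compared with 1.71% of all such regions, and its difference was at the 99.9th percentile.

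The effect of each drug was tested with limma across every region that had a peak in each of the 4 libraries compared, with p adjusted over those regions by the Benjamini-Hochberg method and called at 0.05. LSD1i against Vehicle left starts slightly lower than the centre of all regions, in the members as in other genes. The median difference at 37 member starts was -0.15 (34 below 0), and -0.17 at the starts of 11523 genes (9647 below 0). Centring by intensity, which removes a trend with mean signal, left little of this, with medians of -0.02 over 47 member start regions (26 below 0) and -0.02 over all start regions. In 18 of the 37 both LSD1i libraries lay below both Vehicle libraries, and in 1, Prps2, above them, against 51% and 6.93% of all starts. Of 67 member regions tested, 0 opened and 2 closed, while 4% of all regions opened and 2.05% closed, and 19 of the 67 had an unadjusted p under 0.05, next to 20.5% of all regions. Of these 19, 9 were among the 47 start regions, next to 16.2% of all start regions. The other 10 were among the 20 that entered through the deposited tables. Neither of the 2 calls held without LSD1i replicate 1, without LSD1i replicate 2 or without Vehicle replicate 2. Calls over all regions also became fewer without either LSD1i replicate, and more without Vehicle replicate 2. Scaling by depth, which leaves out the centring, gave 0 calls, where 0.409% of all regions opened and 0.075% closed. The median at member starts was then -0.31. These are bulk libraries, in which fewer cells of a type with a region open and less opening per cell cannot be told apart.

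The 2 closed regions belong to Ampd2 and Xdh. Ampd2 deaminates AMP to IMP, and the region, chr3:108082362-108083426, lies inside the gene, 1976 bp from the nearest annotated start. Signal was 0.60 and 0.47 in LSD1i, 0.69 and 0.79 in CER, 0.06 and 0.15 in Combo, 0.70 and 0.42 in 6MP, 1.03 and 1.13 in Vehicle and 0.79 and 0.74 in Day0. The Vehicle pair was the highest of all groups and the Combo pair the lowest, with no overlap between either drug group and Vehicle. LSD1i minus Vehicle was -0.54 ± 0.14 (adjusted p = 0.0151). The summits rested on 120 to 306 fragments. At the strongest Ampd2 start region the same difference was -0.36 ± 0.14 and did not pass (adjusted p = 0.124).

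Xdh, which oxidises hypoxanthine and xanthine to uric acid, closed in LSD1i at chr17:73892838-73894072, inside the gene and 56325 bp from its start. The region had signals of -0.37 and -0.36 in LSD1i, 0.15 and 0.52 in CER, -0.25 and -0.30 in Combo, -0.14 and 0.44 in 6MP, 0.23 and 0.39 in Vehicle and -0.34 and -0.04 in Day0. LSD1i and Combo libraries lay below all Vehicle and CER libraries, near the level of Day0. LSD1i minus Vehicle was -0.67 ± 0.18 (adjusted p = 0.0189), and Vehicle minus Day0 was +0.50 ± 0.18, which did not pass (adjusted p = 0.272). The Xdh start had 1.58 and 1.46 in LSD1i, 1.79 and 1.60 in CER, 1.73 and 1.64 in Combo, 1.67 and 1.68 in 6MP, 1.75 and 1.71 in Vehicle and 1.63 and 1.54 in Day0. At this start LSD1i minus Vehicle was -0.21 ± 0.15 (adjusted p = 0.457).

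**Figure D3:**
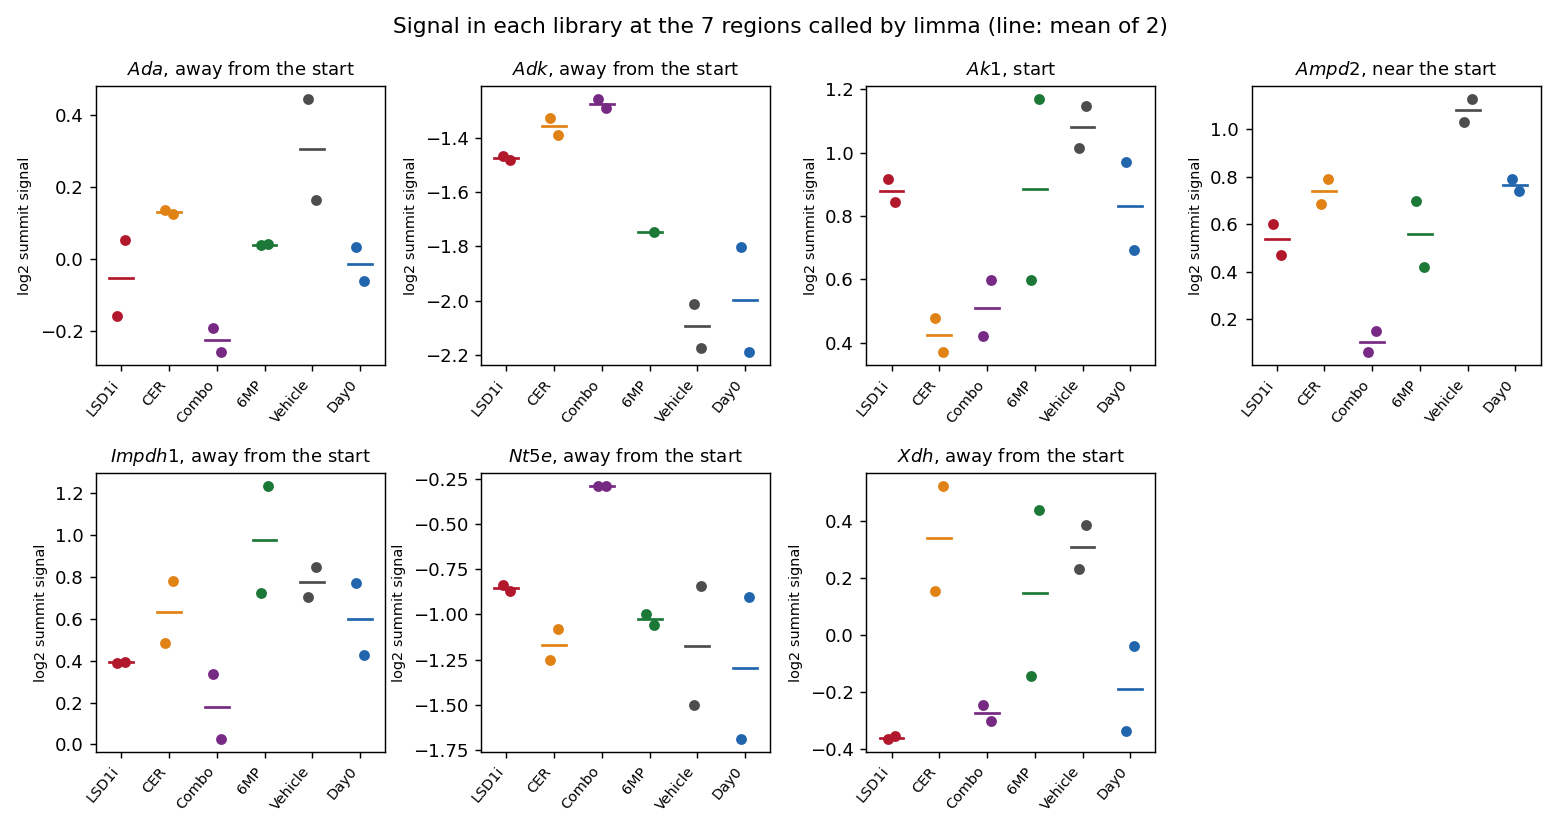
Log2 summit signal, centred, in each of 12 libraries (points, 2 per group) at the 7 member regions called in LSD1i or Combo against Vehicle; lines are means of 2, and the y axes differ between panels. Combo libraries lie below Vehicle at Ada, Ak1, Ampd2, Impdh1 and Xdh, and above it at Adk and Nt5e.

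The triple combination changed 7 of 67 member regions tested by limma, 2 opened and 5 closed, where 4.96% of all regions opened and 3.11% closed. Of the 47 regions within 2 kb of a start that were tested, 0 opened and 2 closed, next to 1.22% and 1.63% of all start regions. The other 5 of the 7 lay elsewhere and came in through the deposited tables. The Ampd2 region again closed, by -0.97 ± 0.14 (adjusted p = 1.74e-05). Combo minus LSD1i was -0.43 ± 0.14 there, which did not pass (adjusted p = 0.205). Without Combo replicate 1, or without Combo replicate 2, fewer member regions were called, and fewer of all regions as well. Scaling by depth gave 0 called member regions, where 2.81% of all regions opened and 0.082% closed. Apart from that scaling, the Ampd2 call held in all 10 other alternatives run, and each of the other 6 calls was lost without at least 1 single library.

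Ak1 closed in the region at its start, chr2:32620756-32621946, which also overlaps the body of St6galnac6. Signal was 0.92 and 0.84 in LSD1i, 0.48 and 0.37 in CER, 0.42 and 0.60 in Combo, 0.60 and 1.17 in 6MP, 1.02 and 1.15 in Vehicle and 0.97 and 0.69 in Day0. All CER and Combo libraries lay below all Vehicle libraries. Combo minus Vehicle was -0.57 ± 0.16 (adjusted p = 0.0191, lost without Vehicle replicate 2 or either Combo replicate) and CER minus Vehicle -0.66 ± 0.16 (adjusted p = 0.0533). The CER difference passed with centring by intensity (adjusted p = 0.0293). It also passed with the replicate number as a block (adjusted p = 0.0484) and with the file-name letter as one (adjusted p = 0.00371). It did not pass with scaling by depth, the mean of the summits or only regions called in all 12 libraries. Nor did it pass without CER replicate 1, CER replicate 2 or Vehicle replicate 2. Without Vehicle replicate 1, which leaves 1 library of Vehicle, the difference was -0.72. LSD1i minus Vehicle was -0.20 ± 0.16 (adjusted p = 0.498). The 2 other Ak1 regions tested in Combo differed by -0.20 and -0.35 and did not pass.

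The other closed regions were in or near Impdh1, Ada and Xdh. The Impdh1 region, chr6:29195784-29196495, lies 15802 bp from the nearest Impdh1 start and in no gene body. It had 0.39 and 0.39 in LSD1i, 0.48 and 0.78 in CER, 0.34 and 0.03 in Combo, 0.72 and 1.24 in 6MP, 0.71 and 0.85 in Vehicle and 0.77 and 0.43 in Day0. Combo minus Vehicle was -0.60 ± 0.16 (adjusted p = 0.0197), a call lost without Vehicle replicate 2 or Combo replicate 2. The Combo and LSD1i pairs were below Vehicle without overlap and the strongest Impdh1 start region was not called, with -0.10 ± 0.19 in Combo. The Ada region, chr2:163735295-163736636, inside the gene, had -0.16 and 0.05 in LSD1i, 0.14 and 0.12 in CER, -0.19 and -0.26 in Combo, 0.04 and 0.04 in 6MP, 0.45 and 0.17 in Vehicle and 0.03 and -0.06 in Day0. Combo minus Vehicle was -0.53 ± 0.15 (adjusted p = 0.0259), lost without Vehicle replicate 1 or either Combo replicate, and the Vehicle pair was the highest. At the Xdh region it was -0.58 ± 0.18 (adjusted p = 0.0357), lost without Vehicle replicate 2 or either Combo replicate.

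Both opened regions were weak and inside genes. Nt5e opened at chr9:88348330-88349563, 20721 bp from its start, with -0.84 and -0.87 in LSD1i, -1.25 and -1.08 in CER, -0.29 and -0.29 in Combo, -1.0 and -1.06 in 6MP, -1.50 and -0.84 in Vehicle and -1.69 and -0.90 in Day0. Both Combo libraries were above the other 10. Combo minus Vehicle was +0.88 ± 0.24 (adjusted p = 0.0184), and Combo minus LSD1i +0.56 ± 0.24 (adjusted p = 0.371). Vehicle replicates differed widely here, and the Nt5e call was lost without Vehicle replicate 1, Combo replicate 1 or Combo replicate 2. Adk opened at chr14:21090089-21091289, 13937 bp from its nearest start, with -1.47 and -1.48 in LSD1i, -1.33 and -1.39 in CER, -1.26 and -1.29 in Combo, no call and -1.75 in 6MP, -2.01 and -2.18 in Vehicle and -1.80 and -2.19 in Day0. Every LSD1i, CER and Combo library lay above every Vehicle and Day0 library. Combo minus Vehicle was +0.82 ± 0.26 (adjusted p = 0.0424), and leaving out any of the 4 libraries ended the call. Its summits held 16 to 67 fragments. At the 2 Adk starts Combo minus Vehicle was -0.03 and -0.31 and did not pass.

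**Figure D4:**
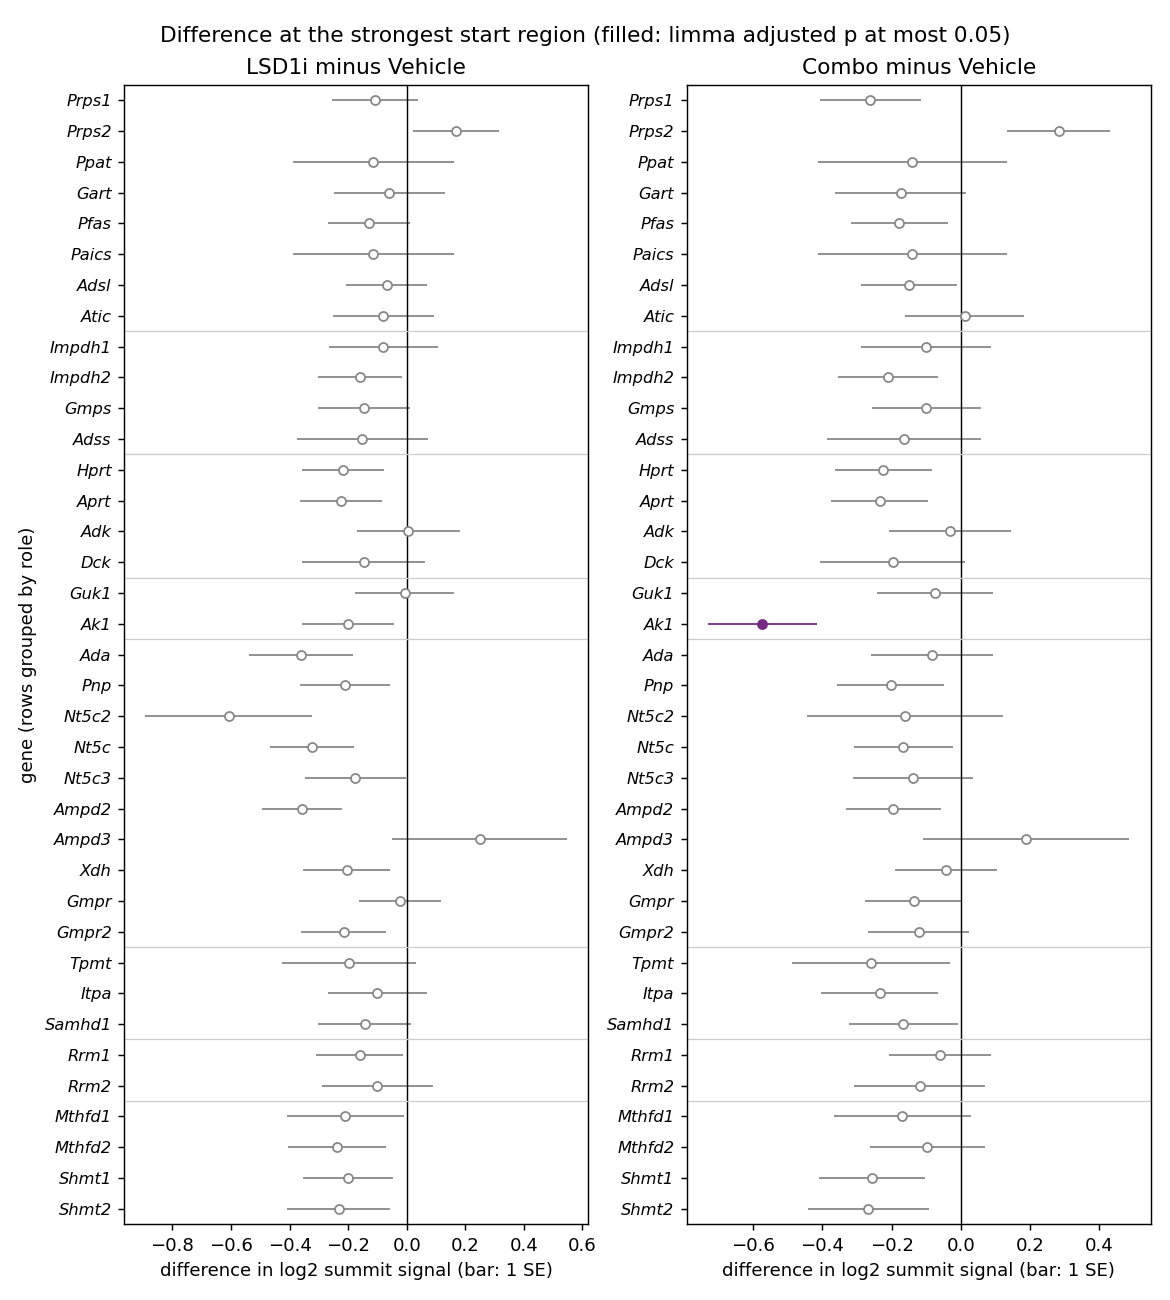
Difference in log2 summit signal from Vehicle at the strongest start region of 37 genes (rows, grouped by role), LSD1i on the left and Combo on the right; bars are 1 SE and filled points have a limma adjusted p of at most 0.05. Most points lie just left of 0 in both panels (in Combo the median is +0.06 when scaled by depth), and Ak1 in Combo is the only filled one.

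Member starts as a whole stood in Combo where other starts did. The median difference from Vehicle was -0.16 over 37 members (34 below 0) and -0.15 over 11577 genes (9680 below 0), and scaling by depth turned these to +0.06 and +0.07. With centring by intensity the medians were -0.05 over 47 member start regions (32 below 0) and -0.01 over all start regions. In 25 of 37 both Combo libraries were below both Vehicle libraries, and in 1, Prps2, above, against 52.2% and 6.03% of all starts. The genes that were below include Hprt, Tpmt, Gmps, Impdh1, Impdh2, Itpa, Ppat and Paics, none of whose starts passed the test. Combo against LSD1i, which differ by mercaptopurine and cerulenin together, gave 0 called of 68 member regions (6 at an unadjusted p under 0.05, next to 10.8% of all regions), where 0.0893% of all regions opened and 0.0229% closed. The median at 37 member starts was -0.02, and +0.02 over 11615 genes, against +0.36 and +0.39 when scaled by depth. Both Combo libraries were above both LSD1i libraries at 7 of the 37 and below them at 4, against 19.9% and 13.2% of all starts.

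Cerulenin alone gave 0 called of 64 member regions with limma (8 at an unadjusted p under 0.05, next to 12.1% of all regions), where 0.154% of all regions opened and 0.174% closed. Those 59 and 67 regions became 709 and 547 when Vehicle replicate 1 was left out, and 5 and 1 when Vehicle replicate 2 was. Leaving out CER replicate 1 gave 5 and 8, and leaving out CER replicate 2 gave 0 and 1. Starts tended higher, with a median of +0.11 at 37 members (12 below 0) and +0.10 at 11416 genes (2971 below 0), and scaling by depth turned these to -0.19 and -0.19. Both CER libraries were above both Vehicle libraries in 14 of the 37 and below in 4, against 35.1% and 7.57% of all starts. The Shmt2 start, chr10:127520568-127522989, had -0.27 and -0.50 in LSD1i, 0.43 and 0.64 in CER, -0.44 and -0.40 in Combo, -0.10 and -0.10 in 6MP, 0.16 and -0.47 in Vehicle and 0.47 and 0.25 in Day0. CER and Day0 were the high pairs, and the Vehicle replicates lay far apart. CER minus Vehicle was +0.69 ± 0.18 (adjusted p = 0.0713). Without Vehicle replicate 1, which leaves 1 library of Vehicle, the difference was +1.01.

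Mercaptopurine, a drug that some of these enzymes act on, gave 0 called of 64 member regions with limma, and 0% of all regions opened or closed. At an unadjusted p under 0.05 there were 2 of the 64, and 1882 of 37145 regions in all (5.07%). The lowest unadjusted p was that of the Ampd2 region inside the gene, at -0.52 ± 0.14 (unadjusted p = 0.000725, adjusted p = 0.437). The median at 36 member starts was -0.01 (20 below 0), and -0.02 over 11385 genes, against -0.47 and -0.48 when scaled by depth. Both 6MP libraries were below both Vehicle libraries at 2 starts, Hprt and Xdh, and above at 0, against 6.25% and 4.44% of all starts. Replicate 1 of 6MP had the lowest signal over background of the 12 libraries, and the 2 libraries moved in opposite directions at starts. Over member start regions the median was +0.09 without 6MP replicate 1 and -0.22 without 6MP replicate 2, and over all start regions +0.14 and -0.19. The value near 0 is thus an average of discordant libraries. Each of these 2 fits rests on 1 library of 6MP, so no p-values from them are given here.

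Vehicle against Day0, the comparison over 2 days in culture, gave 0 called of 66 member regions with limma (6 at an unadjusted p under 0.05, next to 11.2% of all regions), where 0.071% of all regions opened and 0.0101% closed. These shares rest on single libraries: without Vehicle replicate 1, 520 regions opened and 721 closed (1.30% and 1.80%), 1 of them a member region, that of Shmt2. Without Vehicle replicate 2 there were 0 and 1, without Day0 replicate 1 there were 7 and 0, and without Day0 replicate 2 there were 0 and 0. The median at 36 member starts was +0.10 (12 below 0), and -0.01 over 11464 genes, which scaling by depth turned to +0.31 and +0.20. Both Vehicle libraries were above both Day0 libraries in 17 of the 36 and below in 6, against 26.8% and 21.6% of all starts. Hprt was among those above, by +0.35 ± 0.14 (adjusted p = 0.323), and Shmt2 among those below, by -0.52 ± 0.18 (adjusted p = 0.247). Without Vehicle replicate 1, which leaves 1 library of Vehicle, the Shmt2 difference was -0.83.

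The authors' deposited tables, which list regions at an FDR of at most 0.05, gave a different count for LSD1i. There, 31 of 38 members had at least 1 listed region against Vehicle in 57 entries. All 31 had a closed one, and 2 of them, Gmpr and Xdh, an opened one too. Of 19513 protein-coding genes, 46.8% were named for a closed region and 6.91% for an opened one. Of all regions the authors tested, 34.3% were listed as closed and 6.82% as opened. The number they tested, here and in their other comparisons, was estimated from the listed p-values and FDRs, since only listed regions are given. At the start itself 32 of 37 members (86.5%) were closed in the authors' deposited table, next to 71.9% of all genes, and 0 opened, next to 1.45%. These are starts that overlap a listed region, and for 3 of the 32, Gart, Paics and Pnp, the table names that region for another gene. The members not closed were Ampd3, Gmpr, Nt5c2, Prps2 and Rrm1. Over 58 pairings of a member region with a listed region the median fold in the authors' deposited table was -0.44 and the median difference in centred summit signal was -0.20, with the same sign in 56. Both sets of values come from the same libraries, and the scaling behind the authors' values is not given in the sources used here.

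By size of fold in the authors' deposited table for LSD1i, the members with the largest values were Gmpr at +1.71 (FDR = 2.25e-11) and -1.02 (FDR = 0.0104), Tpmt at -1.07 (FDR = 0.00912), Nt5c2 at -0.93 (FDR = 0.00252), Ppat at -0.93 (FDR = 0.00102) and Xdh at -0.87 (FDR = 4.13e-08). Several of these are far from the gene they are named for. The opened Gmpr region overlaps the body of Atxn1, 93077 bp from the nearest Gmpr start, and it had a called peak in both LSD1i and both Combo libraries, in 6MP replicate 1 and in Vehicle replicate 1. Its signal was -0.57 and -0.72 in LSD1i, -1.21 and -0.98 in Combo, -1.69 in the 6MP library and -2.06 in the Vehicle library. It had no call in Vehicle replicate 2, so limma did not test it against Vehicle. The Nt5c2 region with that fold had no call and -3.19 in LSD1i, -3.25 and no call in CER, -3.23 and no call in Combo, -1.62 and -3.00 in 6MP, -2.60 and -2.17 in Vehicle and -2.15 and -2.28 in Day0. Every value there was weak, with 6MP replicate 1 the highest. It lies in the body of Cnnm2, as do 2 more listed for Nt5c2. The Tpmt one, inside the gene, was called in 3 libraries, both Vehicle and Day0 replicate 1, at -3.06 and -3.43 in Vehicle and -2.76 in Day0. The Ppat region with that fold, 5696 bp from its start, had -2.40 and -2.19 in LSD1i, -1.67 and no call in CER, -1.96 and -1.90 in Combo, -1.40 and -2.06 in 6MP, -1.93 and -1.57 in Vehicle and -1.65 and -1.80 in Day0. Both LSD1i libraries were the lowest of those called.

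For Combo, 8 members had a listed region in the authors' deposited table, 4 with an opened and 5 with a closed one, Gmpr having both. Of protein-coding genes, 12.2% were named for an opened region and 3.43% for a closed one, and of all regions the authors tested, 12.8% were listed as opened and 2.15% as closed. Those with the largest folds there were Nt5e at +1.71 (FDR = 0.00011), upstream of the gene, and at +1.05 in the region described above, Gmpr at +1.70 (FDR = 5.53e-09), Tpmt at -1.15 (FDR = 0.0136), Nt5c2 at -1.07 (FDR = 0.00269) and Ampd3 at +1.06 (FDR = 0.0105). The Ampd3 region, inside the gene, was called in LSD1i replicate 2 and both Combo libraries and in no other, at -2.85 in LSD1i and -3.15 and -2.55 in Combo. The upstream Nt5e region had no call and -3.29 in LSD1i, no call in either CER library, -2.80 and -2.36 in Combo, no call and -3.12 in 6MP, no call in either Vehicle library and -2.62 and no call in Day0. It thus had a call in both Combo libraries and in neither Vehicle library. At member starts the table listed 0 as opened and 2, Ak1 and Ampd2, as closed, next to 3.1% and 0.621% of all genes. For CER, 0 members were listed, where 0.00637% of regions opened and 0.359% closed, and where 0.0102% of protein-coding genes were named as opened, 0.528% as closed and 0.0564% of all genes were closed at the start. For Vehicle against Day0, Xdh was the 1 listed member, at +0.54 (FDR = 0.0241) in the region that closed in LSD1i, where 1.8% of regions opened and 0.0678% closed, and 2.04% of protein-coding genes were named as opened and 0.0871% as closed. No member start was listed there, next to 0.959% of all genes opened and 0.0806% closed at the start.

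A wider list of 46 other genes of purine and folate metabolism gave 0 called of 44 start regions with limma in LSD1i, Combo, CER and 6MP against Vehicle. At an unadjusted p under 0.05 there were 5, 6, 3 and 0, next to 16.2%, 11.1%, 9.38% and 1.84% of all start regions. Median differences over these regions were -0.14, -0.12, +0.10 and -0.02, which scaling by depth turned to -0.30, +0.10, -0.19 and -0.48. In the authors' deposited table for LSD1i, 31 of 39 of their starts were closed (79.5%).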

How the data were processed

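The members, the gene lists and the tests were chosen with earlier results of these data known. The submitters' processing notes name MACS2 2.1.2 for peaks, DiffBind for comparisons, and also Bowtie2, Trimmomatic 0.38, Picard 2.18.26 and SAMtools 1.9, with mm10 as the build. The authors deposited, per library, peak lists with a whole-number score, a fold ratio over background, and p-values and q-values as -log10. The authors also deposited comparison tables with log2 levels, log2 folds, p-values and FDRs, and those of 4 comparisons were used. The 6MP table was not used here. The result of 1 marker list is not reported here.

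The fold ratio and Poisson p-value of each summit were solved for its fragment pileup and background. At 100% of summits this gave a whole number of fragments (tolerance 0.001 in -log10 p). The smallest background, 2.44 to 4.55 fragments per position, stood for depth. The smallest pileups were 10 to 14 fragments and the medians 50 to 75, which limits precision at weak regions. Overlapping peaks were joined, the highest summit was used, and signals were compared with limma 3.58.1 in R 4.3.3 (1 model over 12 libraries), Python 3.11.15 doing the rest. Both the recovery and the limma fit were tested on simulated data. An exact test of 2 against 2 libraries could not pass 0.05. Values per library were given for members with a called region, for up to 5 members per deposited table by size of fold, and for genes acting on mercaptopurine. Shmt2 was added after its values were seen. Same-numbered replicates did not deviate together (correlations of -0.344 to 0.246), so no pairing was assumed.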

Additional observations from a re-analysis of the deposited data

How the results depend on the processing

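Scaling by depth in place of centring gave 0 called member regions in LSD1i and 0 in Combo. Using the mean of the summits gave 0 and 1, where 1.40% and 2.42% of all regions opened and 0.407% and 0.989% closed. Centring by intensity gave 1 for LSD1i, where 4.40% of all regions opened and 2.04% closed, and 1 for CER, where 0.23% and 0.47% did. For CER the replicate block gave 1, where 0.17% of all regions opened and 0.22% closed. A block on the file-name letter (P, R or none) gave 3 for CER, where 1.07% opened and 1.23% closed. The replicate numbers are shared by label only, and the replicate block moved no other count of called member regions by more than 1.5 times. Over all regions it moved Combo against LSD1i from 39 opened and 10 closed to 81 and 23. Leaving out 1 library, or 6MP replicate 1 with CER replicate 2 (chosen after seeing the data), gave counts of 0 to 6 for LSD1i, 0 to 4 for CER, 1 to 8 for Combo, 0 to 0 for 6MP, 0 to 1 for Vehicle against Day0 and 0 to 0 for Combo against LSD1i. Calls over all regions moved in these fits in every comparison, those of 6MP and of Combo against LSD1i included. The 6 for LSD1i and the 8 for Combo came without 6MP replicate 1 and CER replicate 2. In that fit 5.74% of all regions opened and 4.46% closed for LSD1i, and 6.27% and 5.26% for Combo. In the authors' deposited table for LSD1i, 15 members had a listed region at an absolute log2 fold of at least 0.5. At that fold 3105 of 3518 opened and 8449 of 17729 closed regions remained. In that for Combo, 5 members had one at an FDR of at most 0.01. There 4876 of 6813 opened and 562 of 1142 closed regions remained. Among promoters 3 had one, where 1442 opened and 344 closed regions remained. For Vehicle against Day0, 0 had one at an FDR of at most 0.01, where 266 of 719 opened and 2 of 27 closed regions remained. The median at member starts under scaling by depth was -0.31 in LSD1i, -0.19 in CER, 0.0612 in Combo and -0.47 in 6MP, with a reversed sign for CER and Combo. The cause was not tested. None of the 9 called differences changed sign in any alternative run. They were picked for passing in the main fit, and the alternatives reuse the same libraries, so this does not test them anew. Groups of 2 libraries and the low pileups of weak regions limit what can be detected.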
